A study of Mus musculus with 13 samples.

Results

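Genes of blood coagulation and plasminogen activation, 9 in all, were followed across the midbrain libraries of Ripk3fl/fl mice given MPTP or saline: Plat, Plau and Plaur of the plasminogen activation system, F3 and its inhibitor Tfpi, the anticoagulant genes Thbd, Procr and Pros1, and Vwf. They were picked by gene symbol, with earlier results of these data known, and are 9 of the 49315 genes in each count table. All 9 passed the filter on low counts. Bulk RNA-Seq was made from the midbrains of male mice of 8 to 12 weeks, with 1 library per mouse and 13 libraries in all. Cre+ mice carried Ripk3fl/fl and Aldh1l1Cre, a tamoxifen-inducible Cre/ERT2 driven by an astrocyte promoter, so that Ripk3 was deleted in astrocytes while other cells of the tissue kept it. Cre- mice were Ripk3fl/fl littermates without the recombinase. Mice of both genotypes received tamoxifen (60 mg/kg for 5 days) at least 1 week earlier. MPTP, a precursor of a toxin that kills dopaminergic neurons, was given at 20 mg/kg once a day for 5 days, control mice received saline, and tissue was taken 3 days after the last dose from mice perfused with PBS. There were 3 mice in each group except Cre+ MPTP, which had 4.

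Coagulation starts when tissue factor, the product of F3, meets factor VII of the blood, and it ends in thrombin, which cleaves fibrinogen. Tissue factor pathway inhibitor (Tfpi) blocks the first step, thrombomodulin (Thbd) turns thrombin into an activator of protein C, the endothelial protein C receptor (Procr) speeds that activation, and protein S (Pros1) is the cofactor of activated protein C. Plasminogen is cleaved to plasmin, which dissolves fibrin and matrix, by the tissue-type activator (Plat) or by urokinase (Plau), which is held at the cell surface by its receptor (Plaur). In the brain, astrocytes are a rich source of tissue factor, neurons and endothelial cells make the tissue-type activator, and von Willebrand factor (Vwf) is made by endothelial cells and megakaryocytes and stored in Weibel-Palade bodies.

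In GRCm38 the plasminogen activation genes lie apart, Plat (ENSMUSG00000031538) at chr8:22757727-22782844, Plau (ENSMUSG00000021822) at chr14:20836662-20843388 and Plaur (ENSMUSG00000046223) at chr7:24462484-24475968. Of the tissue factor pair, F3 (ENSMUSG00000028128) at chr3:121723537-121735048 and Tfpi (ENSMUSG00000027082) at chr2:84432855-84476775 are annotated. The anticoagulant genes are Thbd (ENSMUSG00000074743) at chr2:148404466-148408188, Procr (ENSMUSG00000027611) at chr2:155751117-155755471 and Pros1 (ENSMUSG00000022912) at chr16:62854307-62929346, and the last gene is Vwf (ENSMUSG00000001930) at chr6:125546774-125686679. Thbd and Tfpi are on the minus strand and the other genes on the plus strand. Counts are of reads in exons, and none of the 9 overlaps another annotated gene.

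The libraries held 11489150 to 29397278 counts in genes. Cre- MPTP replicate 1 stood apart: it had the lowest total, 21101 genes with a count against 25432 to 27186 in the others, and by far the largest GC trend. Between genes of 39.2% and 59.9% GC its log2 level rose by 2.32 relative to the mean of all libraries, against -0.42 to 0.18 in the other 12. Values without this library are given below where a call changed or a value moved by more than 1.5 times, and for some other results. Values with the GC trend removed are given where a call changed and for some other results. Some of these that moved by more than 1.5 times without a change of call are not given. All 5 dopaminergic neuron markers were detected in each group, with a summed level of 182 to 344 CPM (counts scaled to a common library total with TMM factors). Both ends of that range were Cre- MPTP libraries. None of the 5 passed the test with MPTP in Cre- mice, where their median log2 fold change was 0.10. Ripk3 had 4 to 40 counts in Cre- libraries and 4 to 19 in Cre+ libraries, too few to check the genotype of single mice.

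Per length of exon, F3 was the highest of the 9 genes in every library. Its level was 23.1 ± 2.34 CPM per kb in Cre- Saline (SD, n = 3), followed by Plat at 6.89 ± 0.889, Thbd at 5.39 ± 0.171 and Pros1 at 4.29 ± 0.280. Vwf (1.79 ± 1.24), Tfpi (1.08 ± 0.119) and Plau (0.940 ± 0.292) came next, and each of the first 2 stood above its lower neighbour in only 2 of 3 libraries. Procr (0.417 ± 0.153) and Plaur (0.202 ± 0.0883) were the lowest, and Procr lay above Plaur in each of the 3 libraries. The order of the 9 genes was the same in Cre+ Saline, where Procr lay above Plaur in 2 of 3 libraries. With MPTP in Cre- mice, Plaur moved from the last place to the fourth (6.58 ± 3.53), above Thbd in 3 of 3 libraries, while Plau fell to the last (0.338 ± 0.0329). In Cre+ MPTP Plaur stood in place 7 (0.767 ± 0.420, n = 4) and did not separate from its neighbour Plau, which it exceeded in 1 of 4 libraries.

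**Figure D1:**
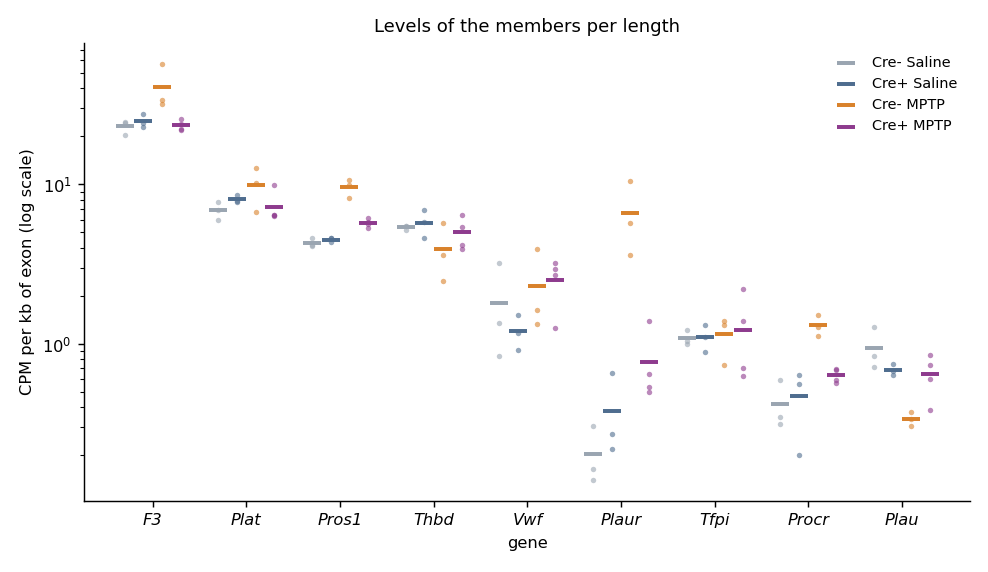
Levels of the 9 genes in CPM per kb of exon, on a log scale, with 1 point per library and a bar at the mean of each group (n = 3, 3, 3 and 4). F3 was the highest gene in each group, and Plaur changed place most, from 0.202 in Cre- Saline to 6.58 in Cre- MPTP.

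The first comparison asked what MPTP did to these genes in mice whose astrocytes keep Ripk3. Of the 9 genes, 5 passed the test (edgeR's quasi-likelihood test, Benjamini-Hochberg adjusted p under 0.05 over 19360 genes), where 3.18% of all genes tested did. Plaur, Pros1, Procr and F3 rose, against 2.23% of all genes that rose, and Plau fell, against 0.956% that fell. The median log2 fold change of the 9 genes was 0.53, beside 0.03 over all genes tested. No overlap between MPTP and saline libraries was seen for 5 of the 9, beside 15.1% of all genes tested. In whole tissue, more cells of a type and more RNA per cell cannot be told apart.

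Plaur, the urokinase receptor, changed most. It had 0.794, 0.430 and 0.365 CPM in the Cre- Saline libraries and 27.4, 14.9 and 9.38 CPM in the Cre- MPTP libraries. The lowest MPTP library was more than 10 times the highest saline library, and the fitted log2 difference was 5.01, with an SE of 0.61 and an adjusted p of 0.00116 (edgeR). Without Cre- MPTP replicate 1, which held the highest value, it was 4.51 (adjusted p = 0.000165, edgeR). Its ligand Plau went the other way. Urokinase stood at 2.98, 1.95 and 1.68 CPM with saline and at 0.867, 0.713 and 0.792 CPM with MPTP, all 3 below every saline library (log2 fold change -1.49, SE 0.33, adjusted p = 0.0296, edgeR). These levels rest on 8 to 75 counts per library, and the call of Plau was lost when any one of 8 libraries was left out (Cre- Saline 1 or 2, Cre+ Saline 1, 2 or 3, Cre- MPTP 2 or 3, Cre+ MPTP 1), with adjusted p up to 0.123. Plat, the tissue-type activator, did not pass the test: it had 37.3, 48.4 and 43.3 CPM with saline and 42.2, 79.6 and 64.0 CPM with MPTP (log2 fold change 0.53, SE 0.23, adjusted p = 0.320, edgeR). Its low MPTP value was that of replicate 1, and without this library Plat passed, at 0.74 (adjusted p = 0.0186, edgeR). With the GC trend removed it was 0.60 and did not pass (adjusted p = 0.0753, edgeR).

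The ratio of Plau to Plat, both per kb, was 0.103 to 0.213 in Cre- Saline and 0.0239 to 0.0548 in Cre- MPTP, with no overlap. The ratio of receptor to ligand, Plaur to Plau, was 0.195 to 0.239 in Cre- Saline and 10.59 to 28.3 in Cre- MPTP. The 28.3 came from Cre- MPTP replicate 1. Both ratios are taken within a library and do not depend on its scaling, though they share the 2 genes' own changes described above.

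Of the procoagulant side, F3 was already abundant and rose. Its values were 62.3, 51.6 and 61.2 CPM with saline and 145.0, 85.4 and 81.3 CPM with MPTP, so that the groups did not overlap (log2 fold change 0.83, SE 0.20, adjusted p = 0.0433, edgeR). Replicate 1 was far above the other MPTP libraries for F3. Without it the log2 fold change was 0.52 and passed (adjusted p = 0.00867, edgeR), and with the GC trend removed it was 0.995 and did not (adjusted p = 0.0605, edgeR). The call of F3 was lost without any one of the 10 libraries outside Cre- MPTP, with adjusted p up to 0.199. Tfpi, the inhibitor of tissue factor, had 5.68, 6.64 and 5.40 CPM with saline and 4.01, 7.57 and 7.16 CPM with MPTP (log2 fold change 0.10, SE 0.42, adjusted p = 0.928, edgeR), and without replicate 1 the value was 0.32.

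Among the anticoagulant genes, Pros1 and Procr rose and Thbd did not pass the test. Pros1 (protein S) had 16.7, 18.8 and 17.1 CPM with saline and 33.8, 43.4 and 40.5 CPM with MPTP, and its libraries varied little within a group. The fitted log2 difference was 1.16, with an SE of 0.13 and an adjusted p of 0.000850 (edgeR), and the call held whichever of the 13 libraries was left out, at 1.08 to 1.26. When edgeR was run on these 2 groups alone, the adjusted p of Pros1 was 0.0782. Procr, the protein C receptor, had 0.635, 0.703 and 1.21 CPM with saline and 2.60, 2.26 and 3.07 CPM with MPTP (log2 fold change 1.63, SE 0.39, adjusted p = 0.0415, edgeR). Procr rested on 16 to 93 counts in these libraries, and its call was lost when any one of 9 libraries was left out (Cre- Saline 1 or 2, Cre+ Saline 1 or 3, Cre- MPTP 3, any Cre+ MPTP), with adjusted p up to 0.200. Thbd, which encodes thrombomodulin, had 19.3, 20.5 and 20.3 CPM with saline and 21.4, 13.4 and 9.24 CPM with MPTP (log2 fold change -0.47, SE 0.28, adjusted p = 0.434, edgeR). Replicate 1 alone lay above the saline libraries. Without it the log2 fold change of Thbd was -0.83 and passed (adjusted p = 0.0358, edgeR), and with the GC trend removed it was -0.49 and did not (adjusted p = 0.352, edgeR).

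F3 was also compared with Thbd within each library. Per kb, F3 exceeded Thbd 3.71 to 4.75 times in Cre- Saline and 9.40 to 12.95 times in Cre- MPTP, and replicate 1, at 10.01, lay between the other MPTP libraries. In Cre+ mice the ratio was 4.02 to 4.99 with saline and 3.42 to 6.10 with MPTP. F3 over its inhibitor Tfpi, also per kb, was 16.8 to 24.48 in Cre- Saline and 24.41 to 78.18 in Cre- MPTP. These groups overlapped, with medians of 23.75 and 24.53, and the 78.18 came from Cre- MPTP replicate 1. F3 over Tfpi in Cre+ mice was 21.01 to 25.96 with saline and 9.99 to 38.73 with MPTP.

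**Figure D2:**
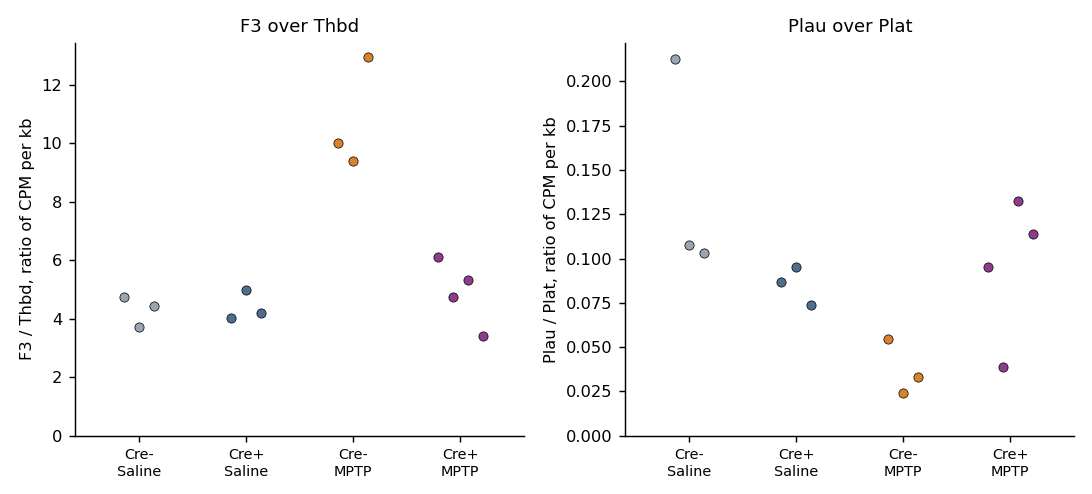
Ratios of F3 to Thbd (left) and of Plau to Plat (right), both from CPM per kb of exon, with 1 point per library in each of the 4 groups (n = 3, 3, 3 and 4). The 3 Cre- MPTP libraries lie above all others for F3 over Thbd, at 9.40 to 12.95, and below both saline groups for Plau over Plat, at 0.0239 to 0.0548, where 1 Cre+ MPTP library overlapped with them at 0.0387.

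Vwf varied widely between mice of a group. It had 13.5, 21.6 and 51.3 CPM in Cre- Saline and 21.4, 26.3 and 62.7 CPM in Cre- MPTP (log2 fold change 0.36, SE 0.51, adjusted p = 0.760, edgeR), and without replicate 1 the value was 0.63. The groups overlapped, and the high value of each came from replicate 3. Without Cre- MPTP replicate 3 the log2 fold change was -0.27.

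**Figure D3:**
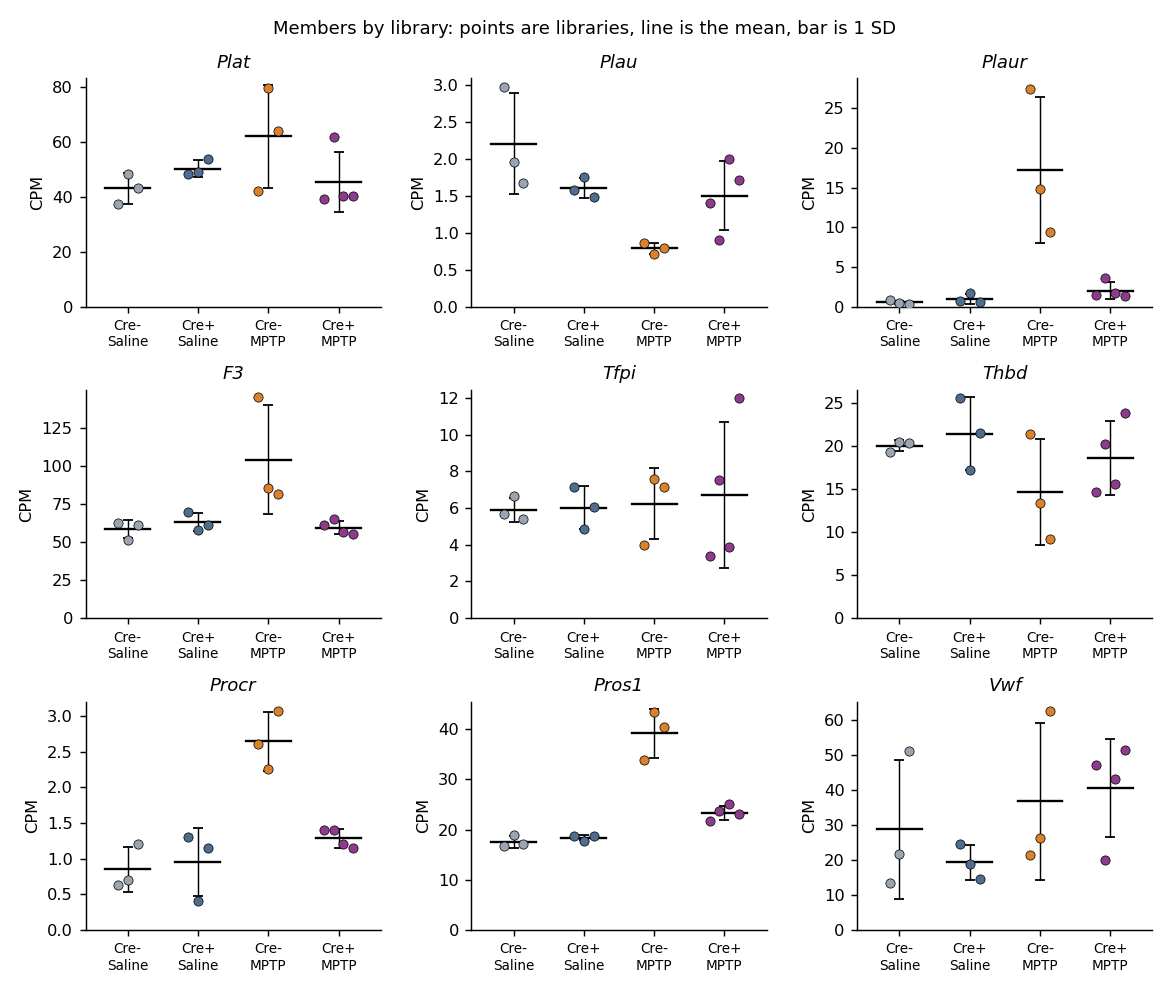
Level of each of the 9 genes in CPM, with 1 point per library, a line at the group mean and a bar of 1 SD (n = 3, 3, 3 and 4). The Cre- MPTP libraries of Plaur, F3, Procr and Pros1 lie above all other libraries, those of Plau below all others, and Vwf, Tfpi, Plat and Thbd overlap between groups.

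The promoters of the 4 genes that rose are printed because these genes moved together in Cre- mice. They are the bases just upstream of the RefSeq transcription start in GRCm38.p6, on the plus strand, read 5′ to 3′, with those that another annotated transcript covers left out. Capitals mark the AP-1 motif TGACTCA on either strand and, in Procr and Pros1, the C/EBP motif TTGNNCAA and the STAT motif TTCNNNGAA. Positions are chr7:24462233-24462482 for Plaur, chr3:121723287-121723536 for F3, chr2:155750967-155751116 for Procr and chr16:62854057-62854306 for Pros1.
Plaur: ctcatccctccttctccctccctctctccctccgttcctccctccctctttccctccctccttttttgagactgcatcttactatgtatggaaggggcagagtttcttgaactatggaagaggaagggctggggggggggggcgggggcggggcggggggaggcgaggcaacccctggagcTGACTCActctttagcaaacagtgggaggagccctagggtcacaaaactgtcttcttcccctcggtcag
F3: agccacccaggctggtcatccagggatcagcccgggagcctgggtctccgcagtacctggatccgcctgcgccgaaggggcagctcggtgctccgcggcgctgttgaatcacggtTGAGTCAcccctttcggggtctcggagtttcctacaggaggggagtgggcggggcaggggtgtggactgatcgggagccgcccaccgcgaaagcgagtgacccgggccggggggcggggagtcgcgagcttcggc
Procr: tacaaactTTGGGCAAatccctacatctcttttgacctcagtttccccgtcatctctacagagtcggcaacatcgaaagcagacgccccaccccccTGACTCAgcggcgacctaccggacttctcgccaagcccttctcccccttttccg
Pros1: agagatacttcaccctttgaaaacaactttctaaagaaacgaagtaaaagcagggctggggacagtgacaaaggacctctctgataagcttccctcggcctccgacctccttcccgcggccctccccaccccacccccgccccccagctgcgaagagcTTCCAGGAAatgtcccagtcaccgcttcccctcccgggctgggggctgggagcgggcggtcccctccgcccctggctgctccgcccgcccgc

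In windows of 250 bases, TGACTCA or its complement stood in the promoters of Plaur, F3 and Procr, at bases -69 to -63, -135 to -129 and -154 to -148 from the start. In F3 it overlapped a KLF motif, CACCC, by 2 bases. Of the 32851 windows of this length in the table, 4.46% held this motif. Pros1 held none, but held TTCNNNGAA at -92 to -84, a motif of 7.02% of all windows, and Procr held TTGNNCAA at -242 to -235, a motif of 5.65%. CACCC was in F3, Procr and Pros1 and in 52.0% of all windows. The NF-kappaB motif (1.21% of windows), the glucocorticoid response motif ACANNNTGT (5.84%) and the E-box CACGTG (6.02%) were in none of the 4. Neither Tfpi window in the table held a motif other than CACCC. Plat, Plau, Thbd and Vwf were not searched. These matches are descriptions of the letters and not of binding.

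The second comparison asked whether MPTP moved these genes in mice without astrocytic Ripk3. None of the 9 passed the test in Cre+ mice, where 0% of all genes did (edgeR, 0 of 19360), while 672 genes, 3.47%, were under an unadjusted p of 0.05. Of the 9, Pros1 and Vwf were among those. DESeq2 passed 83 genes and limma voom 294, none of the 9 in either. Pros1 was 18.7, 17.7 and 18.7 CPM in Cre+ Saline and 21.7, 23.7, 25.0 and 23.1 CPM in Cre+ MPTP, so that all 4 MPTP libraries lay above the saline libraries (log2 fold change 0.34, SE 0.12, unadjusted p = 0.0165 and adjusted p = 1, edgeR). No overlap between these groups was seen in 9.66% of all genes tested. Vwf was 24.4, 18.8 and 14.7 CPM in Cre+ Saline and 47.3, 20.0, 43.3 and 51.6 CPM in Cre+ MPTP, with replicate 2 inside the saline range (log2 fold change 1.07, SE 0.49, adjusted p = 1, edgeR). Plaur was 0.710, 1.71 and 0.571 CPM with saline and 1.40, 3.64, 1.69 and 1.297 CPM with MPTP (log2 fold change 0.99, SE 0.52, adjusted p = 1, edgeR). F3 was 69.7, 58.1 and 61.2 CPM with saline and 60.9, 65.1, 56.3 and 55.4 CPM with MPTP, a log2 fold change of -0.09 (SE 0.19, adjusted p = 1, edgeR). The other 5 genes had log2 fold changes of -0.21 to 0.43. Tfpi was spread most, from 3.40 to 11.98 CPM in Cre+ MPTP, and its highest value came from replicate 4, in which muscle markers summed to 2190 CPM against 2.96 to 45.1 CPM in the other 12 libraries. Without that library the log2 fold change of Tfpi turned from 0.15 to -0.30. The part of muscle tissue in that value was not tested.

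Genotype alone was compared in the saline groups. None of the 9 genes differed between Cre+ and Cre- mice with saline (adjusted p = 1 for each, edgeR), where 0% of all genes passed and 176 were under an unadjusted p of 0.05, none of the 9 among them. DESeq2 passed 2 genes and limma voom 3, none of the 9 in either. The libraries of all 9 overlapped between genotypes, where 11.6% of all genes tested did not overlap. The log2 fold changes ran from -0.58 for Vwf (SE 0.515) to 0.91 for Plaur (SE 0.59), both with wide errors. For F3 and Pros1, measured more tightly, they were 0.11 (SE 0.20) and 0.07 (SE 0.13).

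The third comparison set Cre+ against Cre- mice with MPTP. It shares the Cre- MPTP libraries with the first comparison, so the values of both are given side by side and no agreement between them is read. Plaur and Pros1 were lower in Cre+ mice and passed the test, 2 of 9 genes, where 1.54% of all genes passed and 1.03% passed as lower. Plaur was lower by 3.11 on the log2 scale (log2 fold change -3.11, SE 0.49, adjusted p = 0.0121, edgeR), after 5.01 with MPTP in Cre- mice, and all 4 Cre+ libraries, at 1.297 to 3.64 CPM, were below the lowest Cre- library, at 9.38 CPM. Without Cre- MPTP replicate 1 the difference was -2.62 (adjusted p = 0.00450, edgeR). Pros1 was at 21.7 to 25.0 CPM in Cre+ MPTP and 33.8 to 43.4 CPM in Cre- MPTP (log2 fold change -0.75, SE 0.12, adjusted p = 0.0128, edgeR). The call of Plaur failed when Cre+ MPTP replicate 1 or 3 was left out (adjusted p up to 0.0556, edgeR), that of Pros1 without Cre+ MPTP replicate 1, 3 or 4 (up to 0.0704), and both when edgeR was run on these 2 groups alone (0.200 and 0.225).

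F3 just missed the threshold in this comparison. All 4 Cre+ MPTP libraries, at 55.4 to 65.1 CPM, lay below the 3 Cre- MPTP libraries, at 81.3 to 145.0 CPM (log2 fold change -0.80, SE 0.19, adjusted p = 0.0546, edgeR). Without Cre- MPTP replicate 1 it passed, with a smaller difference of -0.49 (adjusted p = 0.0167, edgeR), as it did without Cre- MPTP replicate 2 or 3. Procr (-1.04, SE 0.35) and Plau (0.94, SE 0.32) each had an adjusted p of 0.190 (edgeR), and neither overlapped between genotypes. Of the 9 genes, 5 did not overlap between these groups (Plaur, Pros1, F3, Procr and Plau), where 11.3% of all genes tested did not. Plat was lower by 0.45 in Cre+ mice (SE 0.22, adjusted p = 0.274, edgeR) and passed without Cre- MPTP replicate 1, at -0.67 (adjusted p = 0.0458, edgeR). Thbd (0.36, SE 0.27), Vwf (0.14, SE 0.48) and Tfpi (0.08, SE 0.39) had adjusted p of 0.462, 0.872 and 0.903 (edgeR), and these errors do not allow the groups to be called alike. Without Cre- MPTP replicate 1 they were 0.715, -0.14 and -0.14, and none passed.

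Whether the response to MPTP differed between genotypes was tested with the interaction term. None of the 9 genes passed, where 0.0103% of all genes (2 of 19360) did, and 5 of the 9 were under an unadjusted p of 0.05 beside 5.76% of all genes. DESeq2 passed 2 of the 9 and limma voom 4. The difference of the 2 responses was -4.01 for Plaur (SE 0.77, adjusted p = 0.138, edgeR) and -0.82 for Pros1 (SE 0.18, adjusted p = 0.166, edgeR). It was -0.92 for F3 (SE 0.27, adjusted p = 0.401), -1.20 for Procr (SE 0.53, adjusted p = 0.795) and 1.40 for Plau (SE 0.45, adjusted p = 0.488, all edgeR). Without Cre- MPTP replicate 1 the interaction passed for Plaur (-3.53, adjusted p = 0.0299, edgeR) and Pros1 (-0.92, adjusted p = 0.00963, edgeR), and 199 genes passed in all. F3 was then at -0.60 (adjusted p = 0.0659, edgeR), Thbd at 0.62 against 0.26, Vwf at 0.44 against 0.71 and Tfpi at -0.17 against 0.06, and none of these passed. It passed for Plaur alone of the 9 without Cre+ MPTP replicate 2.

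**Figure D4:**
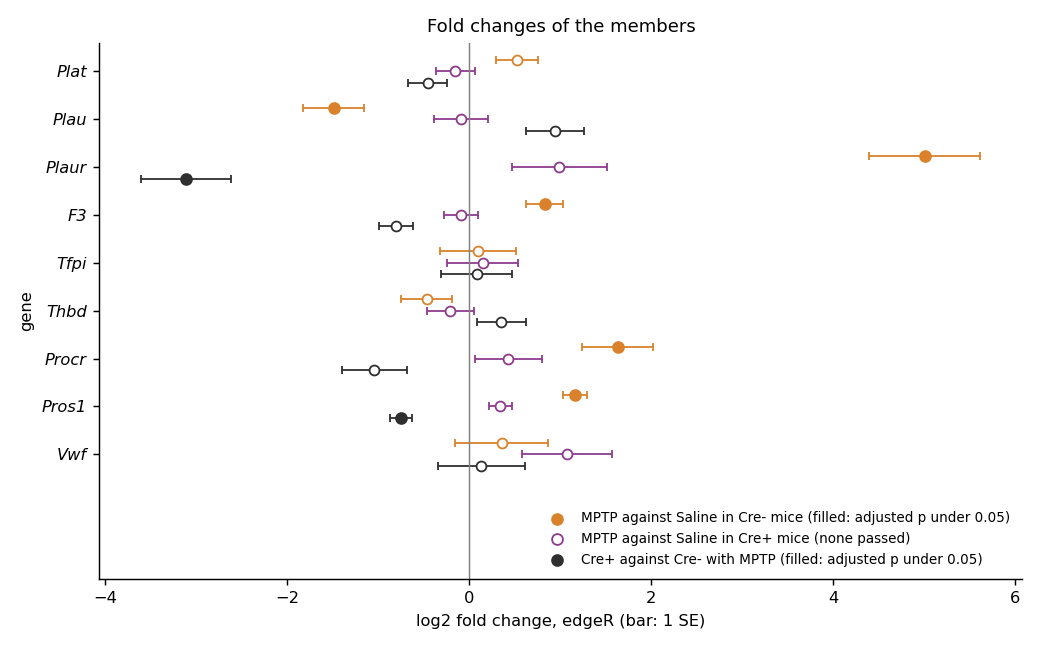
Log2 fold changes of the 9 genes from edgeR with bars of 1 SE, for MPTP against Saline in Cre- mice, MPTP against Saline in Cre+ mice, and Cre+ against Cre- mice with MPTP; filled points have an adjusted p under 0.05. In all, 5 genes passed in Cre- mice and 2 between genotypes with MPTP, while none passed in Cre+ mice; the Cre- MPTP libraries enter both the first and the third comparison.

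The wider pathway was read from 58 other genes of coagulation, fibrinolysis and their receptors. Of these, 39 were tested and 19 were under the filter on low counts. With MPTP in Cre- mice 6 of the 39 passed (15.4%, beside 3.18% of all genes tested), and their median log2 fold change was 0.18. No gene of the 39 passed in Cre+ mice, 2 passed between genotypes with MPTP (5.13%, beside 1.54% of all genes tested), and none passed for genotype with saline or for the interaction.

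Most of the clotting cascade was at or near the limit of detection. Of 19 coagulation factors, fibrinogen chains and helpers, 11 were under the filter, and F11, F13b, Fgb and Kng1 had at most 3 counts in every library. The fibrinogen chain Fga reached 15 counts and Fgg 4, and F7, the partner of tissue factor, reached 12. None of the 8 that were tested passed in any comparison. Among these, Ggcx and Vkorc1, whose products take part in the vitamin K-dependent carboxylation that protein S needs, had log2 fold changes of -0.49 (adjusted p = 0.242) and 0.63 (adjusted p = 0.481, both edgeR) with MPTP in Cre- mice. Proc, which encodes protein C, had at most 4 counts in any library, and Serpinc1, which encodes antithrombin, at most 10.

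In the plasminogen system 14 of 17 other genes were tested, 2 rose and 1 fell with MPTP in Cre- mice. Serpinf2, the plasmin inhibitor alpha-2-antiplasmin, had 5, 0 and 4 counts in Cre- Saline and 30, 65 and 45 in Cre- MPTP (log2 fold change 4.32, SE 0.94, adjusted p = 0.0243, edgeR), and its call was lost without any one Cre- Saline library (adjusted p up to 0.101). Mmp9, a matrix protease, had 3.29, 3.28 and 3.54 CPM with saline and 15.3, 4.44 and 8.91 CPM with MPTP (log2 fold change 1.48, SE 0.37, adjusted p = 0.0493, edgeR). Its highest value came from replicate 1, without which the log2 fold change was 0.99 (adjusted p = 0.0451, edgeR). Its call was lost when any library but Cre- MPTP replicate 1 or 2 was left out, with adjusted p up to 0.191. Vtn, which encodes vitronectin, a ligand of the urokinase receptor, fell from 119, 117 and 133 CPM to 39.8, 72.1 and 68.9 CPM (log2 fold change -1.03, SE 0.20, adjusted p = 0.0108, edgeR). Its call was lost without Cre- Saline replicate 3 (adjusted p = 0.0604, edgeR) and with the GC trend removed (-1.06, adjusted p = 0.0612, edgeR). Plg had at most 16 counts in a library. The inhibitor genes Serpine2 (log2 fold change 0.09, adjusted p = 0.822) and Serpini1 (-0.31, adjusted p = 0.710, both edgeR) did not pass. Nor did Lrp1, which clears the activators, Anxa2 and S100a10, whose products form a plasminogen receptor.

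Of the other anticoagulant and regulator genes, A2m passed, 1 of 4 tested. A2m, a broad protease inhibitor that also takes up plasmin and thrombin, had 11.6, 12.9 and 10.59 CPM in Cre- Saline and 81.4, 108.9 and 90.5 CPM in Cre- MPTP, with no overlap (log2 fold change 3.00, SE 0.34, adjusted p = 0.000850, edgeR). It was at 17.02 to 43.8 CPM in Cre+ MPTP (log2 fold change against Cre- MPTP -1.86, SE 0.30, adjusted p = 0.0122, edgeR), and this call failed when Cre+ MPTP replicate 1 or 3 was left out (adjusted p up to 0.0575). A2m and Serpinf2 belong to gene sets that the study drew from these libraries, so their direction is not independent evidence.

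Selp rose most of all the pathway genes. It encodes P-selectin, the adhesion molecule stored with von Willebrand factor in Weibel-Palade bodies and in platelet granules, and had 3, 2 and 5 counts in Cre- Saline and 47, 272 and 530 in Cre- MPTP. The fitted log2 difference was 6.40, with an SE of 0.89 and an adjusted p of 0.00217 (edgeR) and passed whichever library was left out. In Cre+ MPTP it had 20, 55, 6 and 34 counts, lower than in Cre- MPTP (log2 fold change -3.09, SE 0.63, adjusted p = 0.0345, edgeR). That call was lost in 9 of the 13 fits with a library left out; it was kept without Cre+ Saline 1, Cre- MPTP 1, Cre- MPTP 2 or Cre+ MPTP 2, and adjusted p reached 0.124. Vwf, which shares its granule, had a log2 fold change of 0.36 with an error of 0.51. Angpt2, another cargo of the granule, had 1.78 (adjusted p = 0.169, edgeR).

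Protein S is also a ligand of the receptors Tyro3, Axl and Mertk, with Gas6 as the other ligand. Tyro3 fell with MPTP in Cre- mice, from 117, 106 and 109 CPM to 81.0, 58.7 and 66.9 CPM (log2 fold change -0.69, SE 0.13, adjusted p = 0.0129, edgeR), and the call was lost without Cre- Saline replicate 1 (adjusted p = 0.0556). Mertk had a log2 fold change of 0.80 (adjusted p = 0.0871), Axl 0.22 (adjusted p = 0.404) and Gas6 0.19 (adjusted p = 0.640, all edgeR). The thrombin receptor genes F2r, F2rl1, F2rl2 and F2rl3 were tested and none passed in any comparison.

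**Figure D5:**
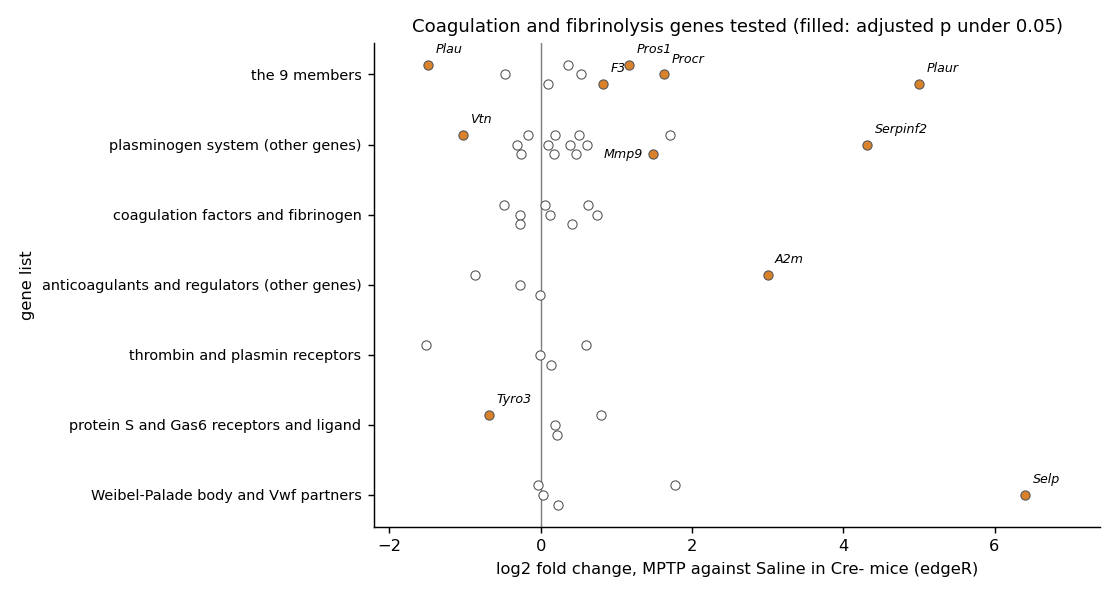
Log2 fold changes for MPTP against Saline in Cre- mice (edgeR) of the 9 genes and of the 39 other pathway genes tested, with 1 point per gene and 1 line per list; filled points have an adjusted p under 0.05 and are named. Of the 9 genes 5 passed and of the 39 genes 6, none of them among the 8 coagulation factors and helpers or the 4 receptors, and the largest fold changes were those of Selp, at 6.40, and Plaur, at 5.01.

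Markers of cells that could supply these transcripts were read in the same libraries. With MPTP in Cre- mice, 1 of 11 endothelial markers passed the test (Tek, lower) and none of the 5 platelet markers tested. Between genotypes with MPTP, 2 of 11 endothelial markers passed as higher in Cre+ mice (Tek and Kdr), beside 1.54% of all genes tested. No platelet marker passed there. The summed level of 11 endothelial markers was 321 to 353 CPM in Cre- Saline, 270 to 322 in Cre+ Saline, 313 to 426 in Cre+ MPTP and 293 to 531 in Cre- MPTP, where the 531 came from replicate 1. In that library Cldn5 was at 298 CPM against 45.1 to 87.1 in the other 12, while Tek, another endothelial marker, was at 3.36 CPM against 7.37 and 7.73 in the other Cre- MPTP libraries and 16.1 to 26.4 elsewhere. The 8 platelet and megakaryocyte markers summed to 9.81 to 15.1 CPM, except for 55.3 CPM in Cre- MPTP replicate 1, of which Gp1bb gave 35.0, Itga2b 11.49, Gp5 7.37 and Pf4 1.41, each the highest of the 13 libraries, while Gp1ba, Gp6, Gp9 and Ppbp had 0 counts there. Gp6, Gp9 and Ppbp had at most 10 counts in any library.

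The 6 neutrophil markers summed to 3.90, 2.495 and 14.4 CPM in Cre- MPTP and to 0 to 2.21 CPM in the other 10 libraries, with Ly6g at 3 counts or fewer everywhere. The filter on low counts removed 4 of the 6. Of the 2 tested, Retnlg passed as higher with MPTP in Cre- mice and had 14, 15 and 155 counts in Cre- MPTP and 5 counts or fewer elsewhere. Retnlg met the filter through the Cre- MPTP libraries alone, so its call as higher is no separate support. Over the 13 libraries, which share group and depth, Pearson's r with the neutrophil sum was 0.891 for Procr, 0.765 for Pros1, 0.625 for F3, 0.622 for Plaur and -0.803 for Plau. Neutrophils were not alone in this. With the sum of the astrocyte markers, r was 0.882 for Procr, 0.869 for Pros1, 0.737 for F3, 0.808 for Plaur and -0.927 for Plau. These 5 genes passed with MPTP in Cre- mice, and both sums were highest in Cre- MPTP. A shift of that group alone gives a high r of either sign. For Plat, Thbd, Vwf and Tfpi, r was 0.655, -0.581, 0.288 and 0.024 with the astrocyte sum. With the neutrophil sum it was 0.595, -0.384, 0.256 and 0.224. For F3, r was -0.906 with the pericyte and smooth muscle sum and 0.783 with the platelet and megakaryocyte sum. Cre- MPTP replicate 1 held the highest F3 (145.0 CPM) and the highest platelet sum (55.3 CPM) of the 13 libraries. Its pericyte and smooth muscle sum (74.5 CPM) was the lowest. These r values were not computed without that library. The 7 astrocyte markers summed to 5208 to 5732 CPM in Cre- MPTP and 3679 to 4543 CPM elsewhere. Of these 7, Aldh1l1 and Gfap passed as higher with MPTP in Cre- mice, and the median log2 fold change of the 7 was -0.26. The 7 pericyte and smooth muscle markers summed to 74.5 to 169 CPM in Cre- MPTP against 171 to 281 CPM elsewhere, and none passed. The 6 microglia markers summed to 168 to 230 CPM against 228 to 303 CPM; P2ry12 passed as lower, and it passed the interaction. The 5 oligodendrocyte markers summed to 7231 to 9747 CPM in Cre- MPTP against 9053 to 14610 CPM elsewhere, with a median log2 fold change of -0.94, and Mog and Cnp passed as lower. The 6 monocyte and border macrophage markers summed to 5.53 to 14.6 CPM against 10.9 to 21.8 CPM, with Ly6c2 and Mrc1 passing in opposite directions. The 6 meningeal fibroblast markers summed to 189 to 214 CPM in Cre- MPTP against 120 to 193 CPM elsewhere, and Dcn passed as higher. Between genotypes with MPTP, Gfap and Retnlg passed as lower in Cre+ mice and P2ry12 and Mrc1 as higher. No pericyte, smooth muscle or oligodendrocyte marker passed there. The part of any of these cells in the changes of the 9 genes was not tested. Of the markers of hepatocytes, which make most clotting factors, Alb and Serpina1c were at 3 counts or fewer in each library. The 5 hepatocyte markers summed to 57.25 CPM in Cre+ MPTP replicate 1 and to 1.22 to 7.12 CPM in the other libraries. They include Ttr, which is also a choroid plexus marker. The choroid plexus markers summed to 68.85 and 58.46 CPM in Cre+ MPTP replicates 1 and 4 and to 9.40 to 17.88 CPM in the others. The 5 erythrocyte markers summed to 87.38 CPM in Cre+ MPTP replicate 4 and to 1.39 to 15.1 CPM in the others. None of the erythrocyte markers passed in any comparison.

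Across the 13 libraries, the genes most like each of the 9 were named by Pearson's r of log2 CPM over 16043 genes. These values describe libraries that share treatment, genotype and depth, and a rise in 1 group alone gives a high r. Plaur was closest to Slc15a3 (r = 0.964), Pmaip1 and Cdkn1a, F3 to Smarcd2 (0.973), Smad1 and Cebpd, and Pros1 to Il6ra (0.963), Cp and Gbp6. Procr was closest to Gm49339 (0.932), Cd300lf and Icosl, Plau to BC064078 (0.949), Sumf2 and G6pc3, and Plat to Pfkfb3 (0.940), Klf6 and Ampd3. Thbd was closest to Bmp6 (0.916), Bmp4 and Jph1 and Vwf to Inpp5d (0.929), Gm16861 and Wdfy4. Tfpi had the weakest match, Zfp120 (0.844), followed by Col8a1 and Msrb3. Among the 9 genes, Plaur and Pros1 had the highest r with each other (0.900), and Plau was negative with Plaur (-0.808), Procr (-0.813) and Pros1 (-0.829).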

How the data were processed

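Total RNA from midbrain was made into libraries with the TruSeq Stranded Total RNA kit. Per the labels, the authors used Trimmomatic 0.36 for trimming and STAR 2.5.2b for alignment to GRCm38, and counted unique hits in exons with featureCounts (Subread 1.5.2); the deposited values are these raw counts per gene, and the strand setting is not given in the sources used here. No member overlaps another annotated gene. Symbols came from GENCODE M21 (48970 of 49315 genes).

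Counts were tested with edgeR 4.0.16 in R 4.3.3: TMM scaling, a filter of 10 counts or more in 3 libraries or more (19360 genes left), 1 term per group over all 13 libraries, the quasi-likelihood test, and Benjamini-Hochberg adjustment in each comparison. CPM are counts scaled to a common total with the TMM factors. Each library is another mouse. SE is the log2 fold change over the square root of F. Alternatives were DESeq2 1.42.0, limma 3.58.1 voom with quality weights, edgeR on 2 groups, DESeq2 size factors, no filter or 50 counts, a replicate block, and each library left out. Removal of a lowess trend on the GC content of each gene's longest transcript (19294 genes) was added after seeing the data. Totals of 11489150 to 29397278 counts limit the precision of Plau, Procr and Plaur.

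The 9 genes, the pathway and marker lists, the motifs and the tests were chosen with earlier results of these data known. Named were the 9 genes, pathway genes that passed in at least 1 comparison, those at 3 counts or fewer throughout, and the 3 genes most like each of the 9 by r (mean of at least 1 CPM); other pathway and marker genes are named as examples chosen after their values were seen. Promoter sequences came from RefSeq (GRCm38.p6), which matched 5 of the 9 genes. Whether the replicate numbers in the labels pair mice was checked by the correlation of deviations from the group means. Of 18 same-numbered pairs, 3 had r over 0.1. The check cannot exclude pairing in groups this small, and no pairing was used in the main fit.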

Additional observations from a re-analysis of the deposited data

Results flagged for a closer look

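A single value stood apart from its group by Dixon's test, among 15 genes examined in the Cre+ MPTP group, the only group of 4; chance gives about 1 in 20. Plat was at 61.7 CPM in Cre+ MPTP replicate 2 and at 39.3, 40.1 and 40.1 CPM in the other 3 libraries, a gap of 0.954 of the range. That library had 17713289 counts in genes, the second lowest total. It also held the highest Plaur (3.64 CPM), F3 (65.1 CPM) and A2m (43.8 CPM) and the lowest Plau (0.895 CPM) of its group.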

How the results depend on the processing

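Across the alternatives run, the direction of Plaur, Pros1, F3 and Procr was kept in each comparison that involves Cre- MPTP, and so was that of Plau. With MPTP against Saline in Cre- mice, Plaur passed in all 22 alternatives and Pros1 in all but edgeR on 2 groups. That comparison called 616 genes, and 1137 by DESeq2, 2624 by limma voom, 110 by edgeR on 2 groups and 1923 without both Cre- MPTP 1 and Cre+ MPTP 4. Of the 9 genes, 5 passed, but 1 with 2 groups and 3 with no filter (Plau adjusted p = 0.0724, Procr 0.0802) and 3 with 50 counts, which left Plau and Procr untested. In Cre+ mice the count of 0 genes became 83 by DESeq2, 294 by limma voom, 15 with 2 groups, 9 with no filter, 3 with 50 counts, 38 without both libraries and 4 with the GC trend removed. Between genotypes with MPTP the 299 genes became 834 by DESeq2, 1224 by limma voom, 0 with 2 groups and 557 without both libraries, and the 2 of the 9 genes became 5 by limma voom and 0 with 2 groups. With saline, DESeq2 called 2 genes, limma voom 3 and 2 groups 6. The interaction called 2 genes, and 223 by DESeq2, 689 by limma voom, 1 with DESeq2 size factors, 10 with no filter, 220 without both libraries and 17 with the GC trend removed. Of the 9 genes it called 2 by DESeq2, 4 by limma voom and 2 without both libraries. The cause of these shifts was not tested.

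No sign was seen that the replicate numbers pair the mice: same-numbered libraries had correlations of -0.179 to 0.184. Groups this small do not let this check exclude pairing. With a replicate block, 2 of the 9 genes passed in Cre- mice (Plaur and Pros1), 0 genes and 0 of the 9 passed between genotypes with MPTP, and 0 genes passed the interaction.

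Leaving out 1 library gave 311 (without Cre- Saline 2) to 1812 genes (without Cre- MPTP 1) and 2 to 7 of the 9 in Cre- mice, and 0 to 32 genes in Cre+ mice. It gave 41 (without Cre+ MPTP 3) to 1826 genes (without Cre- MPTP 2) and 0 to 4 of the 9 between genotypes with MPTP, and 0 to 199 genes and 0 to 2 of the 9 for the interaction.

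Reversals numbered 37, of which 25 were Tfpi and 8 Vwf, and no reversed value passed the test. Tfpi in Cre+ mice was -0.32 by limma voom, -0.37 with the block and -0.30 without both libraries. Between genotypes with MPTP, Tfpi was -0.60 by limma voom, -0.38 with the block, -0.60 without both and -0.15 with the GC trend removed, and Vwf -0.11 by limma voom and -0.27 without both. With saline Tfpi was -0.08 by limma voom and -0.033 with the GC trend removed. For the interaction Tfpi was -0.52, -0.45, -0.63 and -0.12 in that order of settings. With a library left out, Vwf ran from -0.27 to 1.08 and Tfpi from -0.053 to 0.32 in Cre- mice, and Plau from -0.25 to 0.085 and Tfpi from -0.30 to 0.37 in Cre+ mice. Between genotypes with MPTP Vwf ran from -0.14 to 0.78 and Tfpi from -0.36 to 0.30. With saline Thbd ran from -0.042 to 0.23, Vwf from -0.92 to 0.14, Procr from -0.12 to 0.52 and Tfpi from -0.11 to 0.16. For the interaction Vwf ran from -0.01 to 1.35 and Tfpi from -0.40 to 0.27.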
